A study of Mus musculus with 6 samples.

Results

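Rab GTPases are small proteins that mark the membranes of the secretory and endocytic routes. Each switches between a GTP-bound form, which recruits effector proteins that move, tether or fuse vesicles, and a GDP-bound form that is extracted into the cytosol. In fat cells and their precursors they carry secreted matrix, recycle receptors and, with insulin, bring glucose transporters to the cell surface. The genes described here are the rows of the deposited expression table in which a name, after splitting at commas, reads Rab followed by a number and at most 1 letter. The rule found 47 of the 31097 rows. It found none for Rab1b, Rab2b, Rab4a, Rab4b, Rab5b, Rab8a, Rab9 or Rab43. Rankings, shares and sums below therefore cover only the Rab genes with a row. The members were grouped by the compartment where the protein is best known to act, which is a simplification, since many Rab proteins visit several. Counts and sums by compartment depend on this placement, and other placements were not tried.

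Messenger RNA was sequenced from 6 libraries of 3T3-F442A, a mouse preadipocyte line that the labels call an adipocyte cell line. The WT group held 3 libraries of the parental line with intact SWELL1. The SWELL1 KO group held 3 libraries of cells in which CRISPR/Cas9 had been aimed at SWELL1 (Lrrc8a), which encodes part of an anion channel that opens when cells swell. All were grown in RPMI with 10% FBS. The labels call the libraries biological replicates but do not say whether the KO libraries share a clone, and only the KO sample names carry the mark D3, whose meaning is not given. A difference between clones, or whatever D3 stands for, cannot be told apart from the genotype, and p-values reflect only how far these libraries spread.

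Values are in FPKM, which scales fragments to transcript length and sequencing depth, a unit inferred from the tools and the numbers. Estimated depth was 17.1 to 25.9 M fragments per library. The row that holds Lrrc8a also holds Nup188 and Phyhd1, so it does not check the knockout; it stood at 32.5, 35 and 33.2 FPKM in WT against 28.8, 28.0 and 27.3 in KO. Of the adipocyte markers, Lep was listed at 0 in every library and the summed level of all 6 was 137 to 194 FPKM in WT and 2.71 to 4.62 in KO, nearly all of it Fabp4. The 6 fibroblast and preadipocyte markers summed to 3918 to 4524 in WT and 2522 to 2695 in KO; 5 of them fell and Pdgfrb rose from 29.2 ± 1.69 to 41.5 ± 0.635 (SD, n = 3; limma adjusted p = 0.000317). The 3 macrophage, 2 epithelial, 2 skeletal muscle and 3 neuronal markers summed to at most 0.0860 FPKM in any library. The 3 endothelial markers summed to 0.104 to 0.236 in WT and 0.334 to 0.761 in KO, and the 5 melanocyte markers to 4.38 to 5.33 and 3.64 to 4.38, nearly all of it Mitf. The part of these marker differences in the Rab differences was not tested, and in bulk samples fewer cells of a type and less RNA per cell cannot be told apart.

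Of the 47 members, 35 averaged 0.5 FPKM or more across all 6 libraries and were tested with limma across all 10515 rows that met this minimum, on log2(FPKM + 0.5), with Benjamini-Hochberg adjustment and a threshold of 0.05. In KO 9 members were higher and 10 were lower, together 54.3% of those tested. Among all rows tested 65.2% passed, 28.5% higher and 36.7% lower. The family's share of calls was below 65.2%, and the gap was not tested. The median log2 fold change, KO minus WT, was -0.07 for the Rab rows and -0.07 for all rows, and the median size of the change was 0.35 and 0.44. At least 2-fold changes were called higher for 5 members (14.3%, against 7.52% of all rows), 1 of them, Rab39b, listed at 0 in WT, and lower for 3 (8.57%, against 9.51%). The groups did not overlap for 23 members, 65.7% against 71.8% of all rows. KO lay above WT in 9 of them (25.7%, against 31.5% of all rows) and below in 14 (40.0%, against 40.3%).

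**Figure D1:**
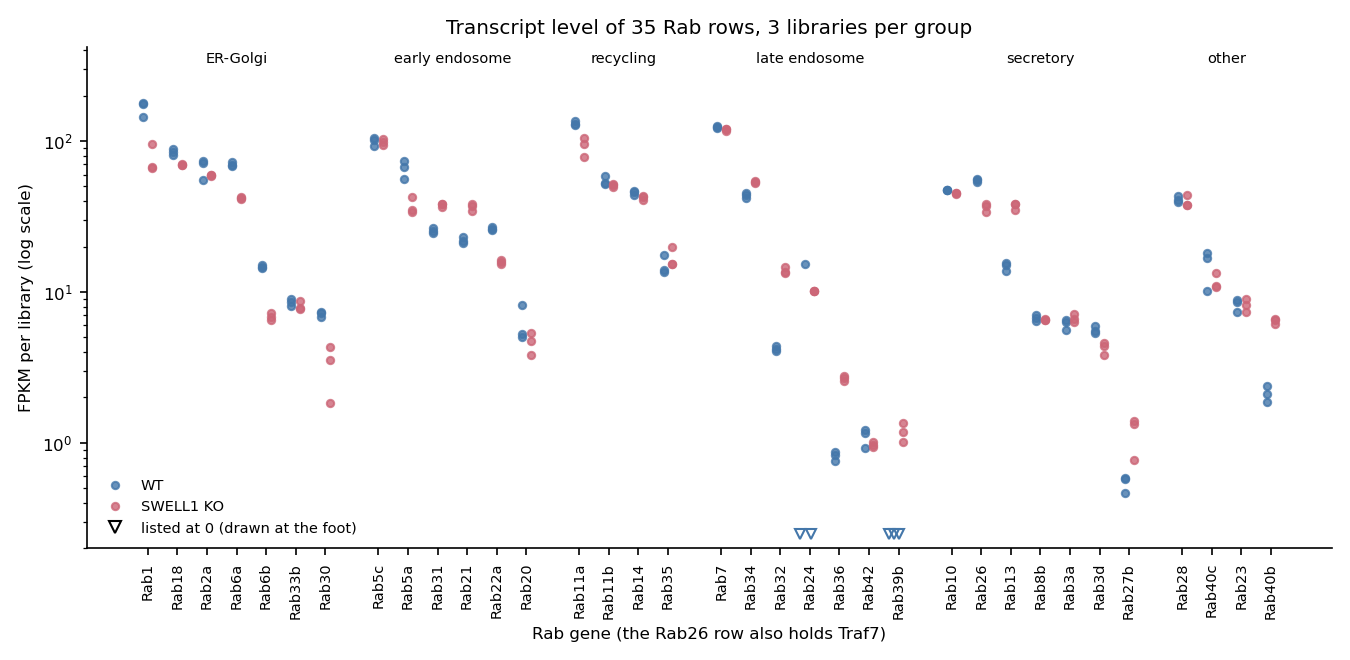
Each point is the FPKM of 1 of the 35 tested Rab rows in 1 library on a log axis, WT in blue and SWELL1 KO in red, ordered by compartment and then by mean level; open triangles at the foot mark libraries listed at 0. Rab1 leads in WT (mean 167 FPKM) and Rab7 in KO (120 FPKM), and the triangles fall on Rab24 and Rab39b.

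In WT the members with the highest mean FPKM were Rab1 (167), Rab11a (131), Rab7 (124), Rab5c (100) and Rab18 (84.2). In KO the order was Rab7 (120), Rab5c (98.7), Rab11a (92.4), Rab1 (76.2) and Rab18 (69.8). The same 5 genes headed both lists. In KO the ranges of Rab5c, Rab11a and Rab1 overlapped, so their order does not exceed the spread. Rab18 lay within the range of Rab1, above it in KO replicates 1 and 2, so the order of Rab1 and Rab18 does not exceed it either. In every KO library Rab7 lay above the others, and Rab18 lay below Rab5c and Rab11a.

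The ER-Golgi members fell where they changed. Of 7 tested, 5 were lower in KO (71.4%, against 36.7% of all rows) and 0 higher (28.5% of all rows), with a median log2 fold change of -0.73. The count depends on which members were placed in this group, and whether the group differs from the other compartments was not tested. Rab1 (current symbol Rab1a; chromosome 11, 20201432 to 20226856, GRCm38) directs vesicles from the endoplasmic reticulum to the Golgi. It was at 145, 178 and 177 FPKM in WT, in the order of the replicate numbers, against 67.1, 66.3 and 95 in KO. Every KO library lay below every WT library (2.19-fold lower mean, log2 fold change -1.14, SE 0.16, limma adjusted p = 0.00147).

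Both Rab6 genes, which act in traffic within the Golgi and back to the endoplasmic reticulum, fell. Rab6a (chromosome 7, 100607410 to 100641268) was at 68.4, 69.1 and 72.5 FPKM in WT against 41.5, 41.9 and 42.3 in KO (log2 fold change -0.73, SE 0.04, limma adjusted p = 2.3e-05). Rab6b (chromosome 9, 103111787 to 103185276), best known from neurons, was at 14.5, 14.7 and 15 in WT and at 6.53, 6.82 and 7.21 in KO (log2 fold change -1.05, SE 0.05, limma adjusted p = 2.1e-05). Libraries of a group lay close together for both genes, and the groups were far apart. Exons of Rab6a overlap those of Mrpl48 on the opposite strand. The row that holds Mrpl48 and D630004N19Rik was listed at 0 in all libraries, and an exact 0 in this table can be a failed estimate. Without strand, reads of Rab6a and Mrpl48 cannot be told apart.

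Rab30, a Golgi Rab (chromosome 7, 92741603 to 92844535), was at 7.26, 6.82 and 7.34 FPKM in WT against 3.52, 4.30 and 1.85 in KO, lower in all 3 KO libraries but with KO replicate 3 well under the other two (log2 fold change -1.10, SE 0.26, limma adjusted p = 0.0118). Rab18, found on the endoplasmic reticulum and on lipid droplets, was at 88.3, 80.3 and 84.1 in WT and at 69.2, 70.5 and 69.6 in KO (log2 fold change -0.27, SE 0.04, limma adjusted p = 0.00235). Quantile normalization removed the Rab18 call, with a log2 fold change of -0.02 (limma adjusted p = 0.712). Rab2a, which acts between the Golgi and the endoplasmic reticulum, was at 54.9, 72.1 and 73.3 in WT and at 59.4, 58.9 and 60.0 in KO and did not pass (limma adjusted p = 0.283). WT replicate 1 was the low library, and without it Rab2a was called lower (log2 fold change -0.29, adjusted p = 0.00187). Rab33b, a Golgi Rab with a role in autophagy, had means of 8.59 ± 0.47 and 8.08 ± 0.54 (SD, n = 3; limma adjusted p = 0.326).

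Of 6 early endosome members tested, 2 fell, 2 rose and 2 did not pass (median -0.18). The shares were 33.3% higher and 33.3% lower, against 28.5% and 36.7% of all rows. The 250 bases before the RefSeq start (GRCm38.p6) of the 4 called genes are shown because Rab21 and Rab5a, which moved in opposite directions, hold the same palindrome, CACGTG with GT before it and AC after it. They are written 5′ to 3′ on the gene's strand, and capitals mark that palindrome, CACGTG outside it, and TGACGTCA.
Rab21 (chr10:115315592-115315841, strand -): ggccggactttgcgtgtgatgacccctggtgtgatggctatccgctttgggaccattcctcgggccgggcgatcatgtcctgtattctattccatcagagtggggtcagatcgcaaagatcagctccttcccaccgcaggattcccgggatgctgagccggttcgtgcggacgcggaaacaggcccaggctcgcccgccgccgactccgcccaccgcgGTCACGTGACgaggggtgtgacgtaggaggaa
Rab31 (chr17:65772753-65773002, strand -): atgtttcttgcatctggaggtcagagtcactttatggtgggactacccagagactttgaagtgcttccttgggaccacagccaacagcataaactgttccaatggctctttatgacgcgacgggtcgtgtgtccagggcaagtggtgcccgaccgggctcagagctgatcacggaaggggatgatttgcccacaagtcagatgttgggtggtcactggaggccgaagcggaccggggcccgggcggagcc
Rab5a (chr17:53478984-53479233, strand +): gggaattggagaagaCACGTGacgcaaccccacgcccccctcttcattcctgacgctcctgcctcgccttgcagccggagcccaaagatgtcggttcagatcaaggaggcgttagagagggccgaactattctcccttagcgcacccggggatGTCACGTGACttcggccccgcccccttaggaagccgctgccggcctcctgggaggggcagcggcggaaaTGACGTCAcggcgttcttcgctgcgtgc
Rab22a (chr2:173659595-173659844, strand +): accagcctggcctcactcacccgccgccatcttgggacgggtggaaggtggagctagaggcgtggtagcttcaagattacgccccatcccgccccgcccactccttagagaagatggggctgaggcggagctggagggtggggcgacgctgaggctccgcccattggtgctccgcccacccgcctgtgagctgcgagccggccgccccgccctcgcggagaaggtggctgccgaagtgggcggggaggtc

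The extended palindrome, known from promoters of lysosomal genes, was found before the start of 2 of the 39 members with an entry in the promoter table and of 0.4% of 17491 protein-coding genes in it. The shorter CACGTG within it was found for 5 of 39 members (7.6% of protein-coding genes). Those 5 were Rab21 (higher), Rab5a (lower), Rab20 and Rab23 (neither passed) and Rab27a (untested). TGACGTCA, the cyclic AMP response element, was found for Rab5a and Rab25 (2.2% of protein-coding genes). ACGTG, the core that hypoxia-inducible factors bind and that lies inside CACGTG, was found for 9 of 39 (20.0%). Both strands were searched. Promoters of Rab18, Rab26, Rab27b, Rab2a, Rab30, Rab36, Rab37 and Rab38 were not analysed here.

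Rab5a (chromosome 17, 53479234 to 53507680) drives fusion of early endosomes. It was at 73.7, 56.1 and 67.7 FPKM in WT against 42.7, 34.8 and 34.1 in KO, with every KO library below every WT library (log2 fold change -0.81, SE 0.13, limma adjusted p = 0.00237). Its exons overlap those of Pp2d1 on the other strand, which was listed at 0 throughout. Rab5c, its close relative, was at 93.1, 105 and 102 in WT and at 103, 99.1 and 93.6 in KO, with overlapping groups (limma adjusted p = 0.814, 95% interval of the log2 fold change -0.17 to 0.13), though quantile normalization called it higher (0.19, adjusted p = 0.0387). Rab22a (chromosome 2, 173659760 to 173707343), which acts in endosomal sorting and recycling, was at 26.2, 26.8 and 25.8 in WT and at 15.9, 15.3 and 16.4 in KO (log2 fold change -0.71, SE 0.04, limma adjusted p = 4.5e-05).

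The other two called genes of the early endosome rose. Rab21 (chromosome 10, 115287084 to 115315594), known for the traffic of integrins, was at 21.7, 21.0 and 23.0 FPKM in WT against 34.6, 37.0 and 38.2 in KO (log2 fold change 0.73, SE 0.06, limma adjusted p = 0.000114). Rab31, the closest relative of Rab22a (chromosome 17, 65651729 to 65772752), was at 24.5, 26.6 and 25.5 in WT and at 36.4, 38.3 and 38.5 in KO (log2 fold change 0.55, SE 0.05, limma adjusted p = 0.000156). In both genes the KO libraries all lay above the WT libraries. Rab20 was at 5.02, 8.18 and 5.26 in WT and at 3.85, 4.76 and 5.33 in KO, with overlapping groups (limma adjusted p = 0.184).

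Recycling members were lower for 1 of 4 tested genes (36.7% of all rows) and higher for 0 (28.5% of all rows), with a median of -0.10. Rab11a, the Rab that defines recycling endosomes (chromosome 9, 64715299 to 64737758), was at 129, 136 and 127 FPKM in WT against 78.1, 104 and 94.9 in KO (log2 fold change -0.51, SE 0.11, limma adjusted p = 0.00703). Its groups did not overlap. Rab11b was at 52.0, 52.9 and 58.4 in WT and at 50.8, 51.6 and 49.3 in KO, and Rab14, which carries cargo between the Golgi and endosomes, at 43.6, 46.9 and 45.7 and at 43.4, 42.8 and 40.8. Neither passed (limma adjusted p = 0.141 and 0.0963), although their KO libraries all lay below their WT libraries. Rab35, which returns endosomal cargo to the plasma membrane, was at 17.7, 14.0 and 13.6 in WT and at 15.3, 15.3 and 19.8 in KO (limma adjusted p = 0.396).

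Of the late endosome and lysosome members tested with no library at 0, 3 of 5 were higher in KO and 0 lower (28.5% and 36.7% of all rows), with a median log2 fold change of 0.29. Of the other two tested, Rab24 did not pass and Rab39b was called higher but was listed at 0 in WT. The member with the most transcript did not move with them: Rab7, which directs late endosomes to lysosomes, was at 122, 125 and 124 FPKM in WT against 117, 121 and 120 in KO. Its KO libraries all lay just below the WT ones, and it did not pass (log2 fold change -0.05, 95% interval -0.13 to 0.03, limma adjusted p = 0.213). Under quantile normalization Rab7 was instead called higher (log2 fold change 0.17, adjusted p = 0.00292).

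Rab32 (chromosome 10, 10545002 to 10558265), which serves lysosome-related organelles and mitochondria, was at 4.21, 4.06 and 4.36 FPKM in WT against 14.7, 13.4 and 13.5 in KO (3.29-fold, log2 fold change 1.61, SE 0.06, limma adjusted p = 8e-06). The groups were far apart. Its best known relative in melanosome traffic, Rab38, was listed at 0 in all 6 libraries. Of the 5 melanocyte markers Pmel and Dct were listed at 0 in all libraries and Tyr and Mlana were at most 0.220 FPKM, while Mitf, which other cells also express, was at 4.34, 5.18 and 4.62 in WT and at 3.41, 3.63 and 4.34 in KO. Rab36 (chromosome 10, 75037058 to 75054748) was at 0.830, 0.758 and 0.872 in WT and at 2.78, 2.70 and 2.57 in KO (3.27-fold, log2 fold change 1.27, SE 0.08, limma adjusted p = 5.7e-05). Rab34, its close relative, known for lysosome positioning and cilium formation (chromosome 11, 78188430 to 78192193), was at 42.0, 45.0 and 44.1 in WT and at 54.3, 52.6 and 53.7 in KO (log2 fold change 0.29, SE 0.04, limma adjusted p = 0.00117). All KO libraries were above all WT libraries for both genes.

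Rab39b, known from autophagy and from neurons (chromosome X, 75572046 to 75578231), was listed at 0 in all 3 WT libraries and stood at 1.35, 1.18 and 1.01 FPKM in KO (limma adjusted p = 0.000115). It met the minimum level through the KO group alone, and an exact 0 in this table can be a failed estimate, so no fold is given. Rab24, an autophagy Rab, was listed at 0, 15.3 and 0 in WT and stood at 10.1, 10.2 and 10.2 in KO (limma adjusted p = 0.128). Without WT replicate 2 it was called higher (limma adjusted p = 3.5e-05). The WT values then left were those listed at 0, which can be failed estimates, so this call rests on them. The exons of Rab24 (chromosome 13, 55319743 to 55321946) overlap those of Prelid1 on the opposite strand, which fell from 253 ± 19.0 to 121 ± 5.06 FPKM (SD, n = 3), and the part of this overlap in the 0 values was not tested. Rab42 was at 1.1 ± 0.154 and 0.973 ± 0.037 (SD, n = 3; limma adjusted p = 0.383).

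**Figure D2:**
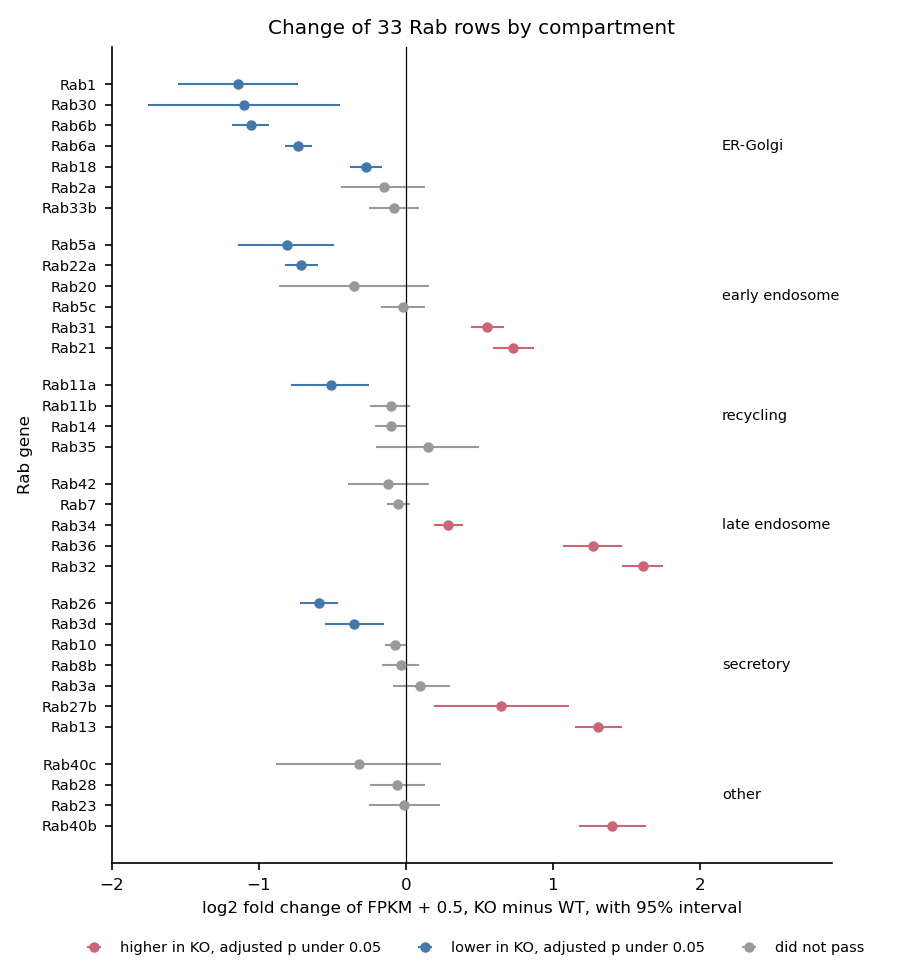
Points are log2 fold changes of FPKM + 0.5, KO minus WT, with 95% intervals from limma, for the 33 tested Rab rows with no library at 0, grouped by compartment and coloured by call. The 5 called ER-Golgi genes lie left of 0, from -1.14 to -0.27, and the 3 called late endosome genes drawn lie right of 0, from 0.29 to 1.61.

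Of 7 secretory members tested, 2 rose, 2 fell and 3 did not pass. The shares were 28.6% higher and 28.6% lower, against 28.5% and 36.7% of all rows. Rab13 (chromosome 3, 90213695 to 90226385), which acts in exocytosis and at tight junctions, was at 13.7, 15.5 and 15.2 FPKM in WT against 38.5, 38.5 and 35.1 in KO (2.52-fold, log2 fold change 1.31, SE 0.07, limma adjusted p = 2.3e-05). Rab27b, known for the docking of secretory granules and exosome release, was at 0.463, 0.577 and 0.584 in WT and at 1.33, 1.39 and 0.766 in KO (log2 fold change 0.65, SE 0.19, limma adjusted p = 0.023). KO replicate 3 was the low library of its group, and the call was lost in several alternative fits: without WT replicate 1 (adjusted p = 0.0655), without KO replicate 1 (0.0651) or 2 (0.0671), with the replicate number as a block (0.0516) and under quantile normalization (0.059). Rab27a was untested, at 0.118, 0.107 and 0.223 in WT and listed at 0 in all KO libraries.

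Rab3d, a Rab of regulated exocytosis (chromosome 9, 21907491 to 21918192), fell from 5.36, 5.51 and 5.92 FPKM to 4.59, 3.84 and 4.41 (log2 fold change -0.35, SE 0.08, limma adjusted p = 0.0101). Rab3a was at 6.56, 5.63 and 6.35 in WT and at 6.6, 7.12 and 6.29 in KO (limma adjusted p = 0.288), and its exons overlap those of Mpv17l2 on the other strand. The Rab26 row also holds Traf7, a neighbouring gene on the same strand whose exons overlap those of Rab26, so its fall from 53.8, 55.7 and 55.2 to 34.0, 36.9 and 38.2 (log2 fold change -0.59, limma adjusted p = 0.000181) cannot be given to Rab26. Leaving out this row and those with a library at 0, an alternative chosen after seeing the data, left 8 members higher and 9 lower.

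Rab10 and Tbc1d4 (AS160), a GTPase-activating protein that holds Rab10 inactive until insulin acts, are best known in fat cells for the delivery of the glucose transporter GLUT4. Rab10 was at 47.1, 47.2 and 47.1 FPKM in WT against 45.3, 44.5 and 45.0 in KO. The KO libraries were all slightly lower, and the difference did not pass (log2 fold change -0.07, 95% interval -0.14 to 0.01, limma adjusted p = 0.0918); under quantile normalization it was called higher (log2 fold change 0.11, adjusted p = 0.0191). Rab8b, of the same exocytic branch, was at 6.72 ± 0.267 and 6.56 ± 0.0746 (SD, n = 3; limma adjusted p = 0.591). Tbc1d4 rose from 1.58 ± 0.297 to 3.98 ± 0.106 (SD, n = 3; log2 fold change 1.12, limma adjusted p = 0.00038). Its relative Tbc1d1, better known from muscle, fell from 13.1 ± 0.67 to 10.0 ± 1.16 (limma adjusted p = 0.0149). Dennd4c, an exchange factor for Rab10, was listed at 0, 8.59 and 8.29 in WT and at 0, 0 and 8.54 in KO.

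Of 4 members outside these compartments 1 was called higher (28.5% of all rows) and 0 lower (36.7% of all rows). Rab40b, whose protein joins a ubiquitin ligase through a SOCS box (chromosome 11, 121356125 to 121388251), was at 2.39, 1.86 and 2.12 FPKM in WT against 6.48, 6.12 and 6.66 in KO (3.03-fold, log2 fold change 1.40, SE 0.09, limma adjusted p = 5.7e-05). Rab40c was at 18.1, 16.8 and 10.2 in WT and at 10.8, 13.4 and 10.9 in KO (limma adjusted p = 0.261). WT replicate 3 was its low library, and without it Rab40c was called lower (log2 fold change -0.57, adjusted p = 0.0115). Rab23, a regulator of Hedgehog signalling and cilia, was at 8.23 ± 0.789 and 8.18 ± 0.77, and Rab28 at 41.2 ± 1.9 and 39.7 ± 3.58 (SD, n = 3; limma adjusted p = 0.957 and 0.538).

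The remaining 12 members were untested, with no library above 0.494 FPKM. Rab19, Rab38 and Rab9b were listed at 0 in every library. Rab12, which acts between recycling endosomes and lysosomes, was listed at 0 in all but WT replicate 2 (0.0271). Rab25, Rab17 and Rab37 were highest at 0.494, 0.238 and 0.126 in a KO library, and Rab15, Rab33a and Rab3c at 0.197, 0.202 and 0.138 in a WT library. Rab39 reached 0.0185 in KO and was listed at 0 in WT. Levels this low rest on few fragments.

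Sums were taken over the rows of a compartment, without the row shared with Traf7 and without the Rab genes that have no row. ER-Golgi Rab transcripts amounted to 387, 430 and 438 FPKM in WT and to 255, 257 and 284 in KO. The KO mean was 63.5% of WT. Rab1 made up 39.8% of this sum in WT and 28.7% in KO. Without Rab1 the KO mean was 75.3% of WT. Recycling Rabs stood at 82.2% of WT, and at 95.6% without Rab11a, which held 53.2% of their WT sum. The early endosome sum was nearly level at 244, 244 and 249 in WT and 237, 229 and 226 in KO (94.0%), with Rab5a and Rab22a lower and Rab21 and Rab31 higher within it.

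The other sums were higher in KO. Late endosome Rabs summed to 170, 191 and 175 FPKM in WT and to 202, 202 and 203 in KO (113% of WT), and without Rab7 to 149.9% of WT. The 0 values of Rab24 in WT replicates 1 and 3 enter this sum. Secretory Rabs summed to 80.1, 81.1 and 82.6 in WT and to 103, 102 and 98.4 in KO (124.3%), and without Rab10 to 164.4%. The KO mean of the secretory sum was 19.8 FPKM above WT. Rab13 alone went from a mean of 14.8 to 37.4, which accounts for all of that rise. Over all 46 unshared rows the sum was 1237 ± 38.7 in WT and 1068 ± 13.7 in KO (SD, n = 3). These sums are descriptions and were given no test.

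**Figure D3:**
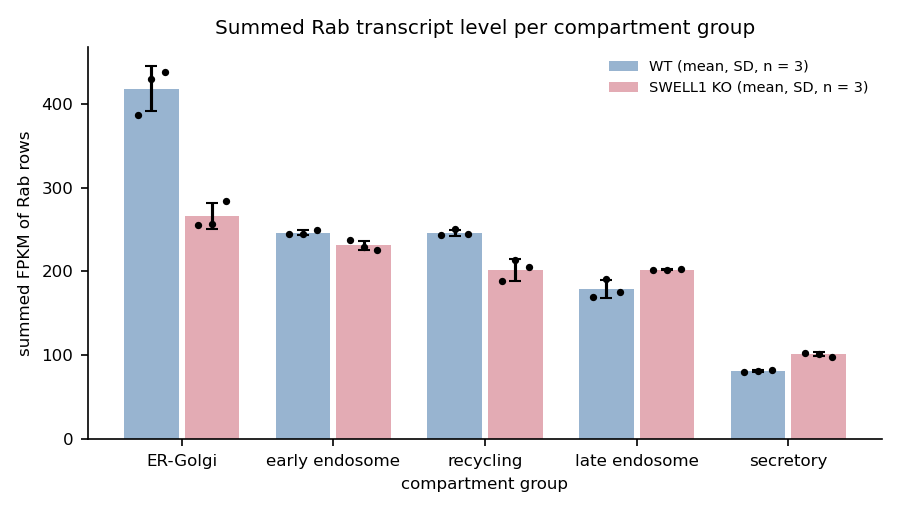
Bars are mean summed FPKM of the Rab rows of each compartment with SD over 3 libraries, and points are single libraries; the y axis starts at 0. The ER-Golgi bar drops from 418 in WT to 266 in KO, while the secretory bar goes from 81.3 to 101.

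The balance between related genes was read as a ratio within each library, for 8 pairs chosen with the results known. Rab22a and Rab31 were near equal in WT, with ratios of 1.07, 1.01 and 1.01, and stood at 0.435, 0.398 and 0.427 in KO. Rab22a to Rab21 went from 1.21, 1.28 and 1.12 to 0.459, 0.412 and 0.430. The share of Rab5a in the Rab5a and Rab5c sum was 39.7% ± 4.7 in WT and 27.3% ± 1.7 in KO (SD, n = 3). Rab40b held 12.9% ± 3.8 of its sum with Rab40c in WT and 35.6% ± 3.7 in KO, Rab11b 29.4% ± 1.8 and 35.6% ± 3.4 of its sum with Rab11a, and Rab6b 17.4% ± 0.2 and 14.1% ± 0.5 of its sum with Rab6a. Rab3d to Rab3a went from 0.816, 0.977 and 0.932 to 0.695, 0.539 and 0.701, and Rab36 to Rab34 from 0.0197, 0.0168 and 0.0198 to 0.0513, 0.0513 and 0.0478. The groups did not overlap in any of the 8 pairs. Among single rows tested 71.8% did not overlap either, and ratios of other gene pairs were not computed. Each pair had a two-sided exact permutation p of 0.1 (0.1 after adjustment over the pairs). That is the smallest that 3 against 3 allows, so none could pass.

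**Figure D4:**
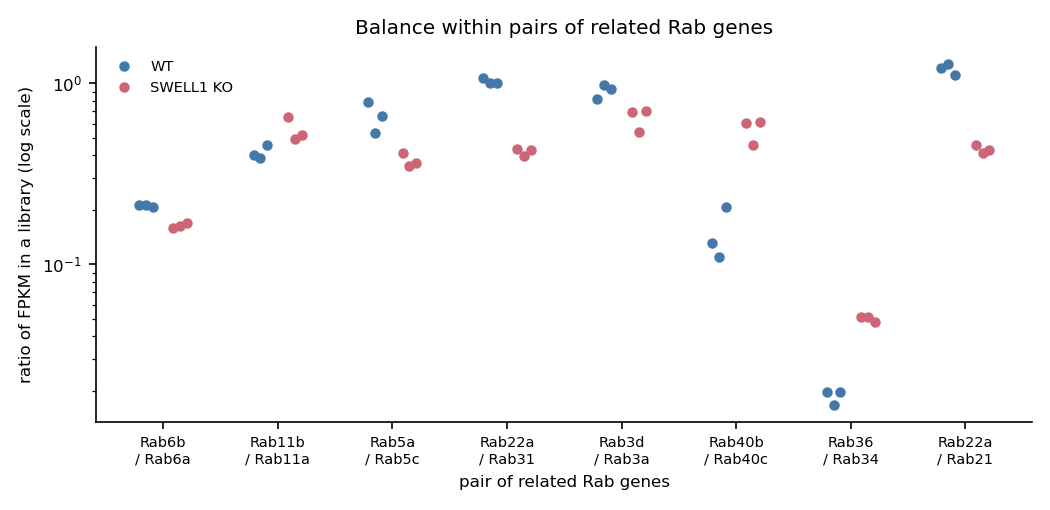
Points are the ratio of FPKM of 2 related Rab genes in 1 library on a log axis, WT in blue and SWELL1 KO in red. The 8 pairs were chosen with the results known. In all of them the KO libraries lie on 1 side of the WT libraries. Rab40b to Rab40c and Rab36 to Rab34 are higher in KO and Rab22a to Rab31 is lower.

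Genes that load, activate, inactivate or read out Rab proteins were counted from lists of their own. Among those that attach lipid to Rab proteins or hold them in the cytosol, 4 of 8 listed genes had a row shared with no other protein-coding gene and were tested. Chm, the escort protein that presents new Rab proteins for lipidation, rose from 5.33 ± 0.0807 to 8.52 ± 0.502 FPKM (SD, n = 3; limma adjusted p = 0.00022). Rabggta, the alpha subunit of the geranylgeranyl transferase, fell from 6.57 ± 0.414 to 5.18 ± 0.326 (limma adjusted p = 0.00943), while its beta subunit Rabggtb, in a row with a small nucleolar RNA, was at 62.4 ± 2.28 and 61.7 ± 5.55 (limma adjusted p = 0.816). Rabac1 was at 121 ± 1.99 and 119 ± 5.26 (limma adjusted p = 0.713). Gdi2 was not analysed here.

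Of 39 tested exchange factor genes, which switch Rab proteins on, 11 were higher and 16 lower in KO (median -0.09). These shares, 28.2% and 41.0%, were near the 28.5% and 36.7% of all rows. Dennd3, an exchange factor for Rab12, fell from 3.67 ± 0.179 to 0.995 ± 0.0595 FPKM, and Trappc6a, a subunit of the TRAPP complex that activates Rab1, from 92.7 ± 2.95 to 34.9 ± 1.84 (SD, n = 3; limma adjusted p = 2.7e-05 and 8e-06). Dennd1b, an exchange factor for Rab35, rose from 1.07 ± 0.221 to 2.46 ± 0.142, and Gapvd1, for Rab5, from 8.80 ± 0.382 to 12.9 ± 0.559 (limma adjusted p = 0.00109 and 0.000373). Of 10 tested TRAPP subunits 4 rose and 4 fell (40.0% each, against 28.5% and 36.7% of all rows). The row of Dennd6a, under its older name, was listed at 0 in all WT libraries and stood at 16.3, 11.9 and 11.6 in KO. Dennd6a is among the 11 called higher and met the minimum level through the KO group alone.

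Of 23 tested GAP genes, which switch Rab proteins off, 8 were higher and 6 lower (34.8% and 26.1%, against 28.5% and 36.7% of all rows; median 0.13). Tbc1d2, among the 6 called lower, met the minimum level through the WT group alone (mean 0.931 FPKM, against 0.329 in KO). Besides Tbc1d4, Tbc1d2b rose from 15.1 ± 1.19 to 28.5 ± 2.44 FPKM. Tbc1d23, a TBC-domain protein that captures vesicles at the Golgi, fell from 34.1 ± 1.32 to 14.7 ± 0.509, and Tbc1d20, which inactivates Rab1, from 77.5 ± 1.24 to 45.6 ± 1.37 (SD, n = 3; limma adjusted p = 1.1e-05 and 2.1e-05).

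Effector genes, whose proteins bind active Rab, were higher for 16 and lower for 17 of 48 tested (median -0.04). These shares, 33.3% and 35.4%, were near those of all rows (28.5% and 36.7%). Among the genes called higher, Sytl1 (mean 0.231 FPKM in WT, 1.22 in KO) and Sytl2 (0.102 and 1.22) met the minimum level through the KO group alone. With a minimum of 1 FPKM, 14 effector genes were higher and 18 lower. Rufy1, an endosomal effector, rose from 2.82 ± 0.329 to 10.2 ± 1.51 FPKM (SD, n = 3, limma adjusted p = 0.000109). The retromer gene Vps26a rose from 9.96 ± 0.919 to 30.8 ± 1.3 (limma adjusted p = 1.9e-05). Vps35, another retromer gene, was at 88.6 ± 4.95 in WT and 89.1 ± 3.03 in KO (limma adjusted p = 0.873). The golgin gene Golga5 fell from 35.6 ± 2.4 to 14.7 ± 1.47, and Zfyve20 (rabenosyn-5), an effector of Rab4 and Rab5, from 11.7 ± 0.144 to 5.38 ± 0.337 (limma adjusted p = 8e-05 and 2.9e-05). Split by place of action, a division made with these results known, 6 of 8 tested Golgi tethers and adaptors were lower (75.0%, against 36.7% of all rows) and 1 higher. Golga2 (GM130) and Uso1 (p115), tethers that bind Rab1, fell from 41.7 ± 3.09 to 22.4 ± 0.164 FPKM and from a mean of 60.3 to 34.1, while Gcc2 rose from 6.92 ± 0.484 to 9.13 ± 0.0293. Of 7 tested early endosome effectors 4 were higher (57.1%, against 28.5% of all rows) and 2 lower, with Eea1 going from 5.56 ± 0.349 to 13.4 ± 0.342, Appl1 from 7.49 ± 0.315 to 12.4 ± 0.644 and Appl2 from 6.32 ± 0.256 to 14.3 ± 0.226. Exocyst subunits were higher for 3 and lower for 3 of 9 (33.3% each, against 28.5% and 36.7% of all rows). These genes beyond the naming rule were named after their values were seen.

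SNARE genes and their partners, which carry out the fusion that Rab proteins prepare, were higher for 4 and lower for 8 of 17 tested (23.5% and 47.1%, against 28.5% and 36.7% of all rows; median -0.29). Bet1, of the ER-Golgi SNARE complex, fell from 36.9 ± 2.1 to 17.7 ± 1.31 FPKM, and Stx16, a syntaxin of the trans-Golgi network, from 32.5 ± 7.79 to 15.7 ± 1.78 (SD, n = 3; limma adjusted p = 6.4e-05 and 0.00553). Nsf, the ATPase that recycles SNAREs, rose from 6.25 ± 0.49 to 8.46 ± 0.732, and Stxbp3a (Munc18c), the partner of syntaxin 4, from 17.9 ± 0.306 to 23.0 ± 0.509 (limma adjusted p = 0.00728 and 0.000433). Of 5 tested ER-Golgi SNAREs, a division made with these results known, 4 were lower (80.0%, against 36.7% of all rows) and 0 higher. None of the 5 lists was compared with other genes by a test.

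**Figure D5:**
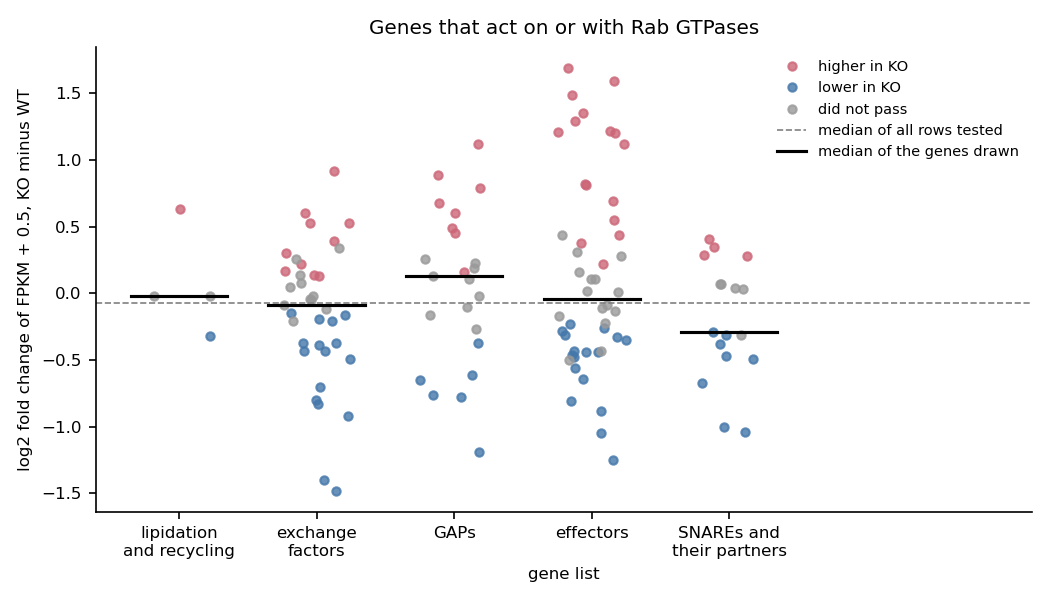
Each point is the log2 fold change of FPKM + 0.5, KO minus WT, of a tested gene with no library at 0, by list and coloured by call; solid bars are medians of the genes drawn and the dashed line is the median of all rows tested (-0.07). All 5 lists hold called genes on both sides of 0, and the list medians run from -0.29 for the SNARE list to 0.13 for the GAP list.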

How the data were processed

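RNA sequencing values of 6 libraries were taken from 1 table that the authors deposited, with 31097 rows. TopHat, Cufflinks 2.02 and the build GRCm38 are listed in the submitters' processing notes, which give no roles; settings, annotation and strandedness are not given in the labels. The unit of the deposited values, FPKM, was inferred. Depth was estimated from the lowest values of long single-transcript genes. Rows averaging 0.5 FPKM or more were fitted as log2(FPKM + 0.5), a scale that understates changes of low genes, with limma 3.58.1 in R 4.3.3 (mean-variance trend, two-sided, Benjamini-Hochberg over all 10515 rows). The fit was tested on simulated data. Positions are from GENCODE M21 (GRCm38). Promoters are from RefSeq and were found for 39 of 47 members. Protein sequences were not used here. Python 3.11.15 and pandas 2.3.3 were used for tables.

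No libraries looked like repeats of each other: of genes with 10 FPKM or more, 25.3% to 31.8% were over 10% apart between libraries of a group. Members, lists and compartments were chosen with earlier results of these data known. In each list the 2 largest increases and 2 largest decreases with at least 2 FPKM and no library at 0 were named, plus Gdi2, Chm, Rabggta, Rabggtb, Tbc1d1, Tbc1d4 and a gene that is not reported here. Dennd4c, Dennd6a, Tbc1d2, Sytl1, Sytl2, Vps35 and the effectors said to lie beyond this rule were named after their values were seen. Alternatives were other offsets, filters, scalings and variance models, the replicate number as a block, and leaving out each library.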

Additional observations from a re-analysis of the deposited data

How the results depend on the processing

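Over the fits that left out 1 library, Rab members higher in KO numbered 8 to 10 and lower 10 to 11, and those at least 2-fold higher 5 to 6 and lower 2 to 3. Under quantile normalization 1 member was at least 2-fold lower in place of 3, 2 of the 4 lipidation genes were higher in place of 1, and 3 members turned from lower and not passing to higher and called: Rab10 (0.11), Rab5c (0.19) and Rab7 (0.17). That scaling shifted the median of all rows by 0.07, and 50.4% of all called rows were then higher, against 43.7%. The shift differed between members, with Rab1 going from -1.14 to -0.92 and Rab11a from -0.51 to -0.29. Rab23 went from -0.01 to 0.02 and Rab20 stayed at -0.35. The cause of the 3 turns was not tested. Same-numbered WT and KO libraries had correlations of deviations of 0.003, 0.012 and -0.093, so the values showed no pairing by replicate number. They cannot show whether the libraries were prepared in pairs. With the replicate number as a block, 8 members were higher and 10 lower, and Rab27b lost its call (limma adjusted p = 0.0516). Summed FPKM in KO as a share of WT went to 75.3% (ER-Golgi), 90.7% (early endosome), 95.6% (recycling), 149.9% (late endosome) and 164.4% (secretory) without the highest row. With median-ratio scaling it went to 66.5% (ER-Golgi), 98.4% (early endosome), 86.2% (recycling), 118.4% (late endosome) and 130.2% (secretory). Over all 46 unshared rows that scaling took it from 86.4% to 90.5%. Of 523 single-member values under the alternatives 511 stayed on their side of the threshold without a called reversal, 6 lost a call, 3 gained one and 3 reversed. Values under 1 FPKM rest on few reads at 17.1 to 25.9 M fragments per library.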
